A study of Flaveria bidentis and Flaveria robusta with 100 samples.

Results

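Heat shock proteins and chaperones were followed through the day in full-grown leaves of Flaveria bidentis, which uses C4 photosynthesis, and Flaveria robusta, which uses C3 (2 species of 1 genus). Members were the entries of the deposited expression table whose description contains "heat shock", "HSP20-like" or "chaperon" in any case, with a mean of at least 1 RPM (reads scaled to a common total per library) over the 50 time-point means of the study. The description alone picked out 193 of the 21869 Arabidopsis gene identifiers listed, and 155 of them reached 1 RPM, as did 13563 genes in all. Of the 38 that did not, 23 were listed at 0 in every mean. Just outside the limit were the J-domain entries AT2G42080 at 0.97 RPM and AT2G18465 at 0.99 RPM, and just inside it the heat shock factor gene HSFA6A (AT5G43840) at 1.03 RPM and the HSP20-like entry AT5G54660 at 1.08 RPM. By description the 155 comprised 70 J-domain or DnaJ-related proteins (J-domain members here), 18 chaperonins, 16 HSP20-like proteins, 14 HSP70s, 13 heat shock factors and 5 HSP90s. The rest were the HSP100 protein HSP101, the heat shock factor binding protein HSBP and 17 others. These others include copper and histone chaperones, which share the word and not the function in protein folding. Of the J-domain members, AT5G06130, AT2G24395, AT5G43260 and AT2G38000 are described only as related to DnaJ. Whether they carry a J domain was not tested.

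Chaperones bind proteins that are not folded and keep them from clumping. HSP70 works in cycles of ATP hydrolysis that are started by J-domain proteins, HSP90 completes the folding of particular clients such as kinases and receptors, chaperonins fold a protein inside a closed ring, small heat shock proteins hold unfolded proteins, and HSP101 pulls aggregates apart. Many of these genes are switched on by heat shock factors, transcription factors that are released from HSP90 and HSP70 when unfolded proteins accumulate, but in an unstressed leaf the same families also serve new proteins in the cytosol, the endoplasmic reticulum (ER), the chloroplast and the mitochondrion. In the chloroplast, chaperonins fold the large subunit of Rubisco, and RbcX proteins help to assemble the enzyme.

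Both species spent 36 days in a greenhouse and the following 6 days in a chamber, where the light was on for 10 h (22 °C) and off for 14 h (20 °C), the regime called LD here. Leaves were taken every 4 h over 2 LD days, over 2 further days of constant light (LL) and once more at the opening of the next LL day, with 2 biological replicates per time point. Hours are zeitgeber times (ZT, counted from lights on), so that in LD ZT00, ZT04 and ZT08 were lit and ZT12, ZT16 and ZT20 dark, while in LL all were lit. On LL day 1, ZT00, ZT04 and ZT08 came before the first lit night, and the light at these hours was as on an LD day. In LD the air was cooler in darkness, the LL temperature is not given in the sources used here, and LL always followed LD, so light at night and the age of the plant or the day it was sampled cannot be told apart.

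Each value is a mean RPM that the authors computed from the libraries of 1 species and time point, which gives 12 LD and 13 LL means per species. Depth per library and spread between replicates were not used here, so no interval belongs to a single mean, and every p-value measures how far time-point means scatter from the model, not the spread between plants. RPM is not divided by transcript length, so levels are compared between times and species and not between genes. Each mean sums to between 999417.5 and 1000090 RPM, so a fall of the most abundant genes raises all others. The 100 most abundant genes held 33.5 to 44.8% of the total in lit means of F. bidentis and 27.7 to 34.9% in its dark means. In 6 F. robusta means (LD day 2 ZT12 and ZT16, LL day 2 ZT04, ZT08 and ZT20, and LL day 3 ZT00) they held 24.2 to 27.8%, against 32.5 to 44.7% in the other lit and 30.4 to 34.8% in the other dark means of that species. These 6 means stand apart, and results that rest on them are also given without them. Results are further given after TMM, a scaling by the bulk of genes (a trimmed mean of M values), whose factors ran from 0.812 to 1.365. In these bulk leaf samples, fewer cells of a type and less RNA per cell cannot be told apart. The summed level of 5 mature leaf markers ran from 17723.5 to 39428.5 RPM in F. bidentis and from 32780 to 99140.5 RPM in F. robusta, and that of 4 vascular markers from 234 to 430 and from 237 to 565 RPM. Of 3 guard cell markers 2 were tested (sums of 15.5 to 28 and 12 to 30.5 RPM), of 4 dividing cell markers 3 (11 to 125 and 11 to 53.5 RPM), and of 3 senescence markers 1 (16 to 102 and 4 to 62 RPM). The part of cell composition in the results was not tested.

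The deposited table lists Flaveria reads under Arabidopsis gene identifiers, whose symbols are used here, and where the description gives only a family the gene's usual Arabidopsis name is used. Compartments and roles are those known of the Arabidopsis proteins. Of closely related entries, 5 pairs ran in parallel over the 25 means of each species and may share reads of 1 Flaveria gene, which makes each pair a single observation. These were HSP81.4 and HSP90.1 (Pearson r of 0.99 in F. bidentis and 0.988 in F. robusta), HSP70-3 and HSP70-4 (0.987 and 0.994), BIP1 and BIP2 (0.999 and 0.999), CPN60B1 and CPN60B3 (0.997 and 0.984), and HSP60 and HSP60-2 (0.992 and 0.994). All counts of members below are counts of entries, with both entries of a pair included.

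As deposited, chaperone transcripts as a whole were most abundant 2 h into the night. In F. bidentis the members together made up 25718 and 29073 RPM in the LD means of ZT12, against 10740 to 11591.5 RPM at ZT00, 13832.5 to 15122.5 RPM at ZT08 and 19511.5 to 19552 RPM at ZT16. In F. robusta they made up 23696.5 and 27368.5 RPM at ZT12, 12060.5 to 13582.5 RPM at ZT00, 15177.5 to 17776 RPM at ZT08 and 18339.5 to 20341.5 RPM at ZT16. At ZT04 they made up 14539.5 to 18753.5 RPM in F. bidentis and 17777 to 18436 RPM in F. robusta. As deposited, the ZT12 values did not overlap with those of any other LD hour in either species. The TMM factors of F. robusta were 0.812 and 0.926 at ZT04 and 1.103 and 1.301 at ZT12. After that scaling its ZT04 and ZT12 sums overlap. The F. robusta ZT12 mean of LD day 2 is also among those that stand apart. In LL at ZT12 the members summed to 20884 and 16343.5 RPM in F. bidentis and to between 16283.5 and 17424.5 RPM in F. robusta, all below the dark ZT12 means of the same species.

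By the hour of the highest LD level (the mean RPM over both days), 75 members (48.4%) were highest at ZT12 in F. bidentis and 73 (47.1%) in F. robusta. Of all 13563 genes, 29.2% and 28.5% were highest at that hour, and the most frequent hour was ZT16, with 37.9% and 40.8%. The lowest hour was ZT00 for 91 members in F. bidentis (45.1% of all genes) and for 90 in F. robusta (41% of all genes). After TMM, 41.3% and 36.1% of members were highest at ZT12, against 23.4% and 18.0% of all genes.

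**Figure D1:**
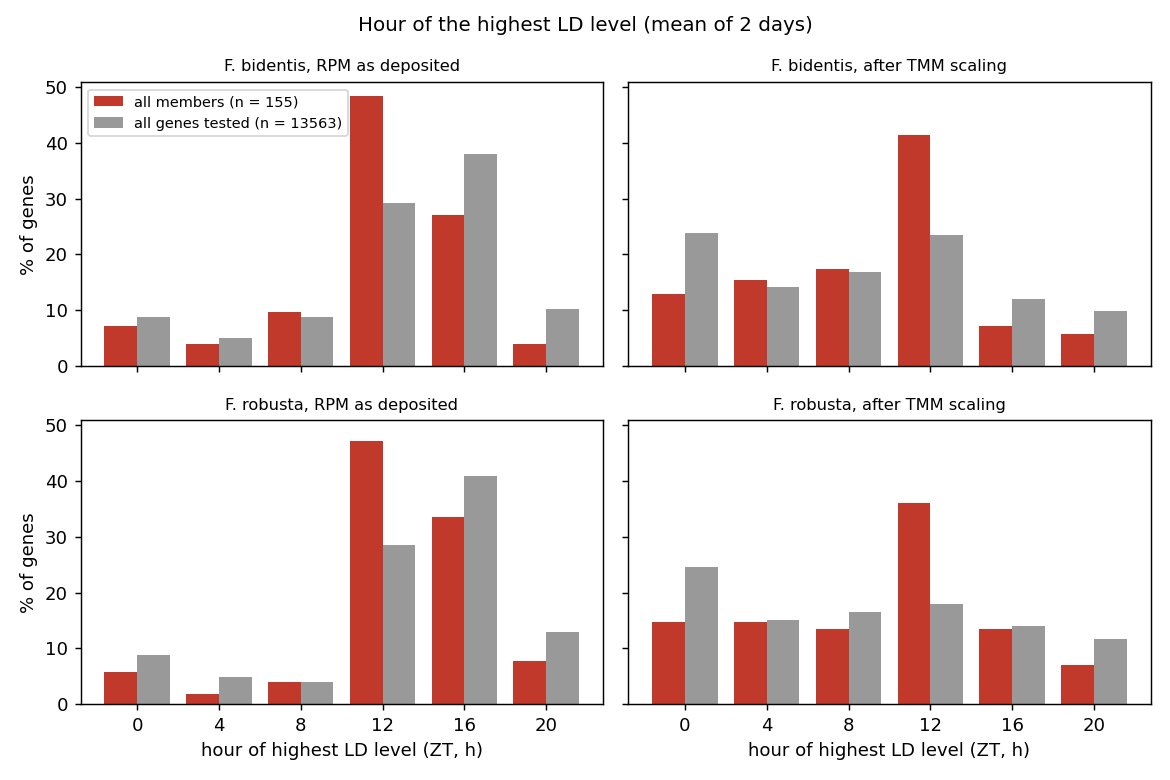
Percentage of the 155 members and of all 13563 genes tested by the hour (ZT, in h) of their highest LD level, per species, as deposited and after TMM. As deposited, 48.4% of members in F. bidentis and 47.1% in F. robusta were highest at ZT12, against 29.2% and 28.5% of all genes.

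A 24 h rhythm (an F test of a cosine and sine beside a linear trend in limma, on log2(mean RPM + 1), with Benjamini-Hochberg adjustment over all 13563 genes and a threshold of 0.05) was found for 103 of 155 members in each species. The backgrounds over all genes were 67.3% and 65.4%, so the members' shares lay at the background. After TMM 62 members passed in F. bidentis (40.8% of all genes) against 72 in F. robusta (41.8%). Without the F. robusta means that stand apart 83 passed there (53.5%, beside 53.9% of all genes). Both species called 75 members (48.4%, beside 49.3% of all genes), 28 were called in F. bidentis alone and 28 in F. robusta alone (18.1% each, beside 18% and 16.1% of all genes), and 24 in neither. Of the 75, the fitted peaks lay within 2 h of each other for 57 (76%, beside 71.1% of all genes rhythmic in both), with a median difference (F. bidentis minus F. robusta) of -0.54 h. In LL no member passed limma in either species, nor did any other gene (0%), while 31 members in F. bidentis (19.3% of all genes) and 27 in F. robusta (13.2%) had an unadjusted p under 0.05.

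Several of the largest rhythms were those of J-domain proteins. AT5G23240 spanned 6.62 log2 units from fitted trough to peak in F. bidentis (SE 0.41, adjusted p = 3.13e-06) and 6.92 in F. robusta (SE 0.58, adjusted p = 5.45e-06), with fitted peaks at 9.63 and 11.6 h. Its LD means ran from 0.5 to 192 with a median of 11.75 RPM in F. bidentis and from 0 to 265.5 with a median of 21.5 RPM in F. robusta. AT1G71000 spanned 5.05 and 4.30 log2 units and peaked at 8.72 and 9.25 h, close to the end of the light period. NDHT (AT4G09350), a J-domain subunit of the chloroplast NADH dehydrogenase-like complex, peaked in the late night, with spans of 3.31 and 3.50 log2 units and peaks at 23.5 and 23.5 h. Its ZT12 means were 33 and 26.5 RPM in F. bidentis and 12.5 and 15.5 RPM in F. robusta, against 326 and 318.5 and 177.5 and 175 RPM at ZT00.

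A pair of comparisons chosen after seeing the data describe the evening rise. The first sets ZT12 against ZT08 in LD (dusk), and the second sets ZT12 in LL, when the leaf was lit, against ZT12 in LD, when it was dark; both are limma contrasts of cell means on the log2(mean RPM + 1) scale, adjusted over all genes. As the hour was picked on the members' own levels, the calls describe it and are no independent test of it. From ZT08 to ZT12, 41 members rose in F. bidentis (18.4% of all genes) and 6 fell (4.59%), and in F. robusta 55 rose (26%) and 4 fell (1.92%). The median change of all genes was 0.243 and 0.392 log2 units, and that of members 0.35 and 0.505. TMM brings the medians of all genes to 0.015 and -0.005. After it 25 rose (8.85% of all genes) and 9 fell (8.84%) in F. bidentis, against 10 (2.60%) and 5 (3.94%) in F. robusta. As deposited but without the means that stand apart, 18 rose in F. robusta (11.6%, beside 5.16% of all genes). The count rests on few means: it was 15 in F. bidentis without LD day 1 ZT08, 24 without LD day 1 ZT12 and 18 without LD day 2 ZT12, and in F. robusta it was 28 without LD day 1 ZT08, 26 without LD day 2 ZT08 and 18 without LD day 2 ZT12.

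With light at ZT12, 28 members were lower than in the dark in F. bidentis (6.69% of all genes) and 3 higher (2.57%). In F. robusta 15 were lower (0.627%) and 0 higher by limma (0.184%). There 3 were higher at an unadjusted p under 0.05 (3.36% of all genes) and 1 after TMM (0.656%). The lower members were 18.1% and 9.68% of the 155, and 12 were lower in both species (7.74%, beside 0.376% of all genes). Without the means that stand apart 10 were lower in F. robusta (6.45%, beside 0.265% of all genes). The 12 lower in both species are given with those means only. After TMM, which takes the medians of all genes from -0.115 and -0.211 to 0.008 and 0.011 log2 units, 31 members were lower in F. bidentis (7.91% of all genes) against 14 in F. robusta (0.553%), and 6 were higher in F. bidentis (6.77%). Leaving out 1 of the 4 means took the count in F. bidentis to 18 (without LD day 1), 8 (without LD day 2) and 7 (without LL day 2), and in F. robusta to 8 (without LD day 2) and 6 (without LL day 2). Both dark means lay above both lit means for 82 members (52.9%) in F. bidentis and 85 (54.8%) in F. robusta, beside 36.8% and 36.4% of all genes. The difference between the species in this change passed for 1 member (0.295% of all genes, and 0.863% after TMM), HSP23.6, and for none once any time point was left out.

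**Figure D2:**
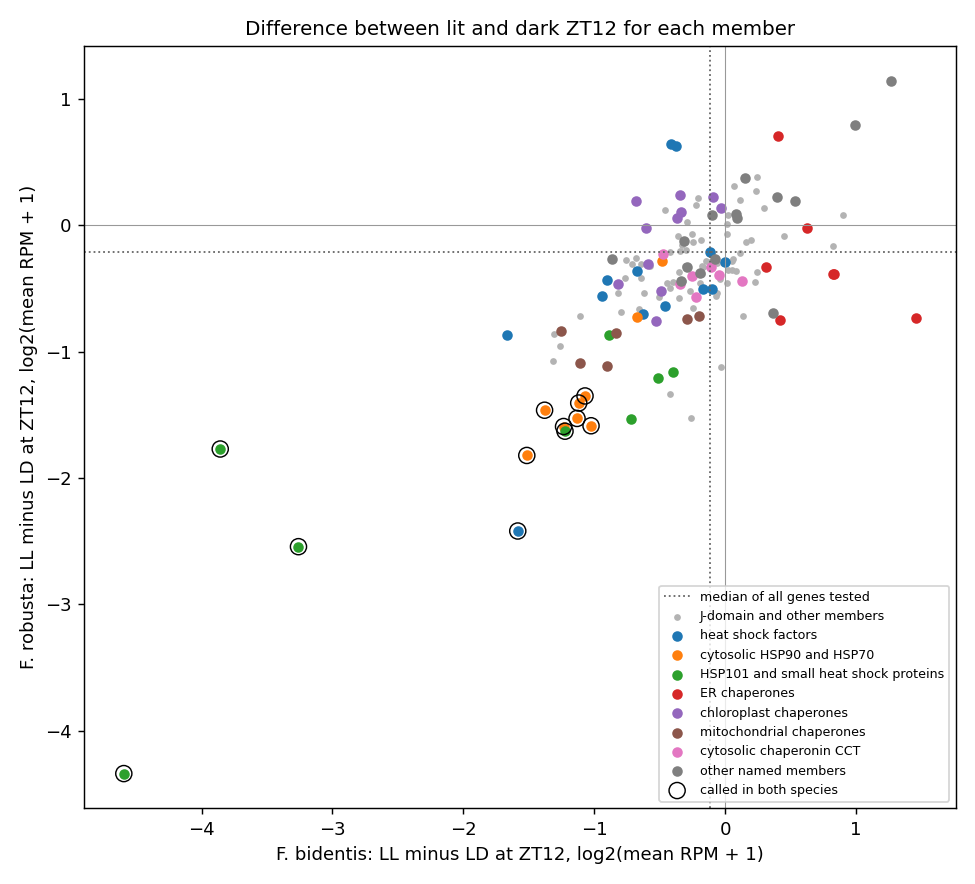
Difference at ZT12 between LL (lit) and LD (dark) for each member, in log2(mean RPM + 1), F. bidentis on the x axis and F. robusta on the y axis. Colours give the compartment, dotted lines the median of all genes tested (-0.115 and -0.211), and circles the 12 members lower in LL in both species, which are cytosolic HSP90 and HSP70 members, HSP101, small heat shock proteins and HSFA2.

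Of the 13 heat shock factors, 5 rose from ZT08 to ZT12 in F. bidentis and 1 fell (18.4% and 4.59% of all genes), against 6 and 1 in F. robusta (26% and 1.92%). After TMM the counts were 5 and 1 against 1 and 1, beside 8.85% and 8.84% against 2.60% and 3.94% of all genes. Without the means that stand apart 1 rose and 1 fell in F. robusta, beside 5.16% and 1.32%. Those that rose in F. bidentis were HSFA2 at 1.52 log2 units, HSFB2A at 1.48, HSFB1 at 1.17, HSFB4 at 0.96 and HSFA1D at 0.73, and the calls of HSFB1, HSFB4 and HSFA1D were lost in at least 1 fit with a mean left out (adjusted p up to 0.152, 0.0787 and 0.131). HSFA2 (AT2G26150) is the heat-inducible factor that prolongs the heat response in Arabidopsis. In F. bidentis HSFA2 stood at 30 and 32.5 RPM in the LD means of ZT12 and at 8 and 13 RPM at ZT08, and its other LD means lay between 11 and 18.5 RPM. In F. robusta it stood at 23.5 and 9.5 RPM at ZT12 and 2 and 1.5 RPM at ZT08, with 11 and 10.5 RPM at ZT00, so that on LD day 2 the ZT12 mean did not exceed that of ZT00. In LL the ZT12 means were 10 and 9.5 RPM in F. bidentis and 2 and 2 RPM in F. robusta, below every dark ZT12 mean of the same species. The dusk rise was 1.52 log2 units in F. bidentis (SE 0.29, adjusted p = 0.00117) and 2.55 in F. robusta (SE 0.29, adjusted p = 2.19e-05). The difference with light at ZT12 was -1.58 (SE 0.28, adjusted p = 0.00163) and -2.42 (SE 0.28, adjusted p = 0.000107), and both passed whichever of the 4 means was left out.

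HSFB2A (AT5G62020), a class B factor that lacks an activation domain and acts as a repressor in Arabidopsis, had 19 and 23.5 RPM at dark ZT12 and 5.5 and 6.5 RPM at lit ZT12 in F. bidentis. It had 11 and 11.5 RPM and 5 and 6.5 RPM in F. robusta. The groups did not overlap in either species, and the difference of -1.67 log2 units passed in F. bidentis (adjusted p = 0.000435), while that of -0.87 in F. robusta did not (adjusted p = 0.116). The difference between species was -0.80 log2 units and did not pass (adjusted p = 0.525). HSFB4 (AT1G46264) was also lower in F. bidentis (-0.90 log2 units, adjusted p = 0.00914), a call lost when 1 mean was left out (largest adjusted p = 0.124).

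HSFA3 (AT5G03720), which acts downstream of the drought-responsive factor DREB2A in Arabidopsis, was an afternoon gene. Its ZT08 means were 19.5 and 25.5 RPM in LD in F. bidentis and 13.5 and 17 RPM in F. robusta, against 1 and 1 and 1 and 1.5 RPM at ZT00. Its rhythm spanned 3.25 and 2.81 log2 units with peaks at 8.57 and 8.42 h. Its change from ZT08 to ZT12 was -1.69 log2 units in F. bidentis (adjusted p = 5.26e-05) and -1.12 in F. robusta (adjusted p = 0.00296, and at most 0.0508 with a mean left out). At ZT08 in F. bidentis it had 24.5 RPM on LL day 1, before the first lit night, and 2 RPM on LL day 2, after it. HSFA7A (AT3G51910) was highest at dawn, with 11.5 and 11.5 RPM at ZT00 in F. bidentis and 7.5 and 7.5 RPM in F. robusta. It was listed at 0 and 0 RPM at ZT16 in F. robusta.

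Most heat shock factors stood at higher levels in the C4 species in LD, and fewer did in LL. Over the 12 matched LD times 11 of 13 passed as higher and the other two did not pass, where 32.3% of all genes were higher and 32.5% lower. Over the 13 LL times 5 were higher and 1 lower (26% and 41.8% of all genes), with 7 and 1 after TMM (34% and 37.1%) and 8 higher without the means that stand apart (31.8%). The median difference of the 13 was 0.467 log2 units in LD and 0.136 in LL, beside -0.003 and -0.134 for all genes. HSFA2 differed by 1.35 log2 units in LD (SE 0.18, adjusted p = 6.89e-06) and was higher in F. bidentis at 12 of 12 LD times and at 13 of 13 LL times. HSFA7A differed by 1.33 log2 units in LD (SE 0.17, adjusted p = 3.5e-06). HSFA1D (AT1G32330), 1 of the constitutive factors that start the heat response in Arabidopsis, ran from 9.5 to 26 with a median of 16.5 RPM in F. bidentis and from 7.5 to 17.5 with a median of 11.75 RPM in F. robusta (difference 0.42, adjusted p = 0.00297).

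The cytosolic HSP90 and HSP70 members stood higher at ZT12 in darkness than in light. All 9 (HSP90.1, HSP81.4, HSP70-2, HSP70-3, HSP70-4, HSP70B, ERD2, HSP70-15 and HSP70-16) had both dark ZT12 means above both lit ones in F. bidentis, as had 8 of 9 in F. robusta, beside 36.8% and 36.4% of all genes. The parallel entries HSP90.1 and HSP81.4, and HSP70-3 and HSP70-4, are counted separately here. From ZT08 to ZT12 in LD 9 of 9 passed as higher in F. bidentis against 7 of 9 in F. robusta, beside 18.4% and 26% of all genes (8 and 2 after TMM, beside 8.85% and 2.60%, and 4 in F. robusta without the means that stand apart, beside 5.16%). With light at ZT12, 8 and 7 were lower, beside 6.69% and 0.627% of all genes. After TMM 8 and 7 were lower, beside 7.91% and 0.553%, and without those means 4 in F. robusta, beside 0.265%.

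HSP90.1 (AT5G52640), the heat-inducible cytosolic HSP90, had 1440 and 1806 RPM at ZT12 in LD and 624.5 and 509 RPM at ZT12 in LL in F. bidentis. The F. robusta means were 1140.5 and 1319 RPM and 343 and 350 RPM. Every dark mean was above every lit one, and at ZT00 in LD it stood at 156 and 117.5 RPM in F. bidentis and 286 and 306.5 RPM in F. robusta. The difference with light was -1.51 log2 units (SE 0.20, adjusted p = 0.000111) and -1.82 (SE 0.20, adjusted p = 9.77e-05), and both passed whichever mean was left out. HSP81.4 (AT5G56000), its parallel entry, had 2590.5 and 3370.5 RPM at dark ZT12 in F. bidentis and 1611.5 and 1309 RPM at lit ZT12, and in F. robusta 2345 and 3016 and 893.5 and 877 RPM. Its difference in F. robusta of -1.59 log2 units passed in every fit with a mean left out (adjusted p = 0.000767), and that of -1.02 in F. bidentis (adjusted p = 0.00568) did not (largest adjusted p = 0.118). Both entries had a second, smaller rise in the morning: HSP81.4 went from 374.5 and 263.5 RPM at ZT00 to 1272.5 and 1898 RPM at ZT04 in F. bidentis and from 727 and 758 to 1398 and 1592 RPM in F. robusta, and was lower again at ZT08 on each day.

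**Figure D3:**
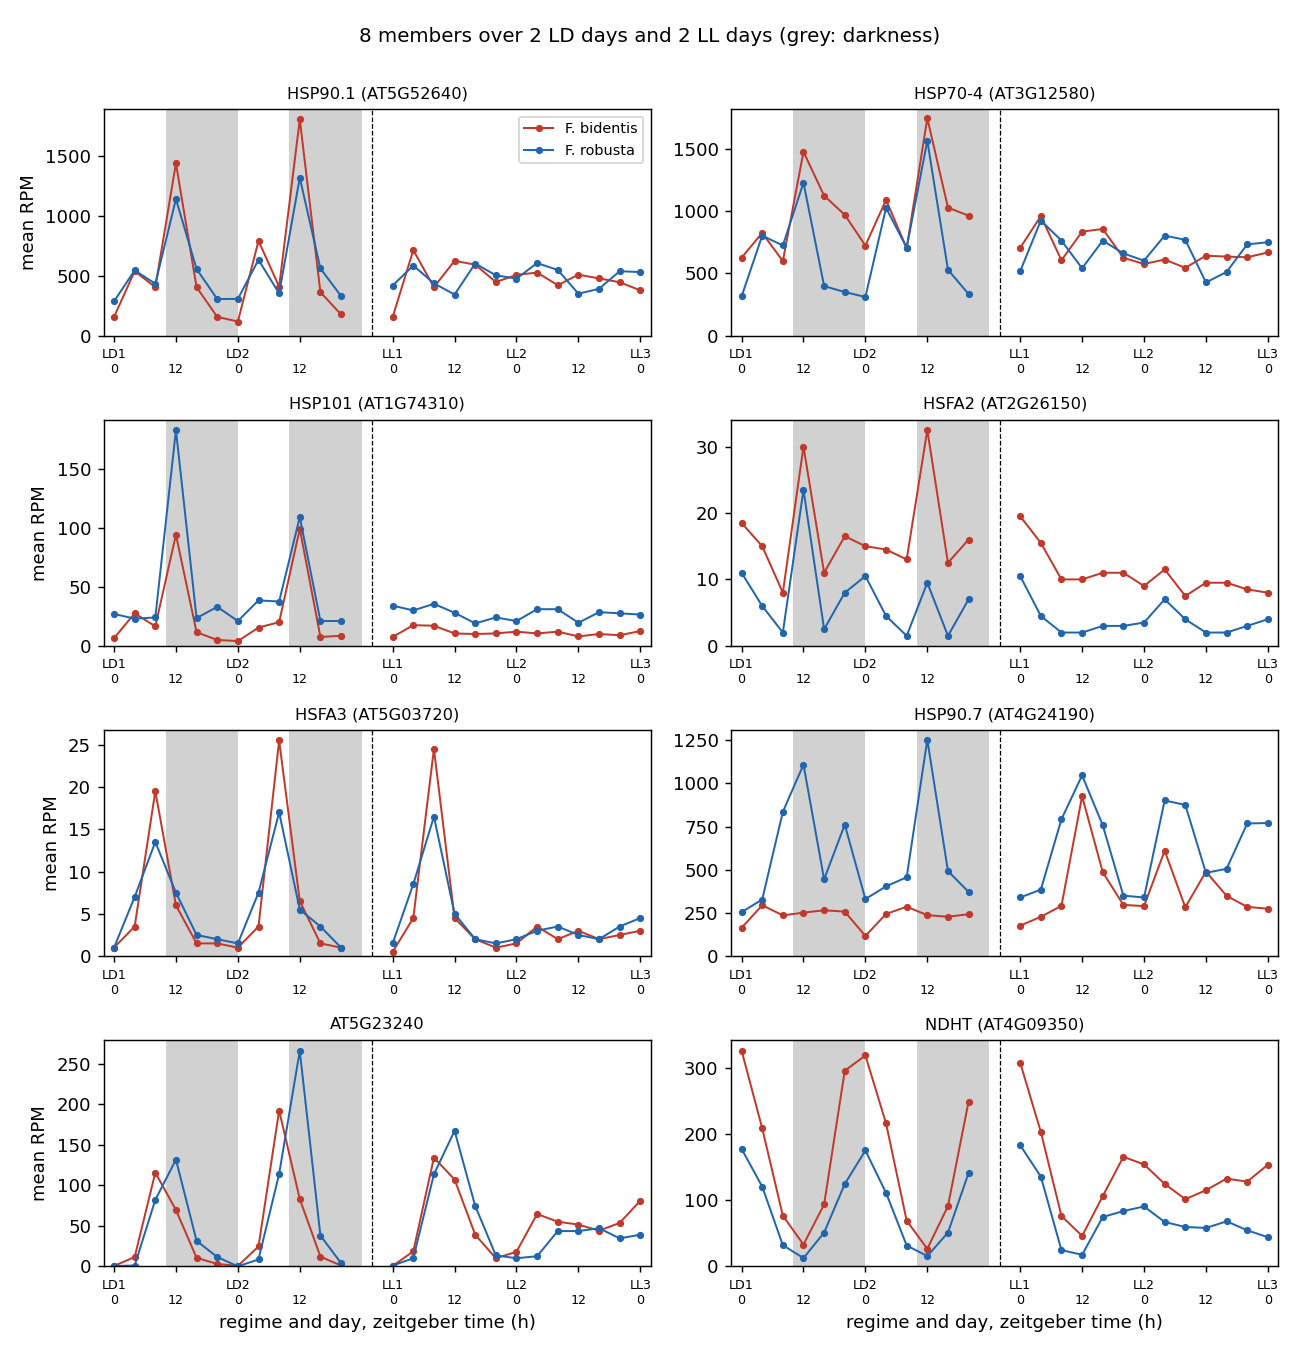
Mean RPM of 8 members at each time point over 2 LD days and 2 LL days, plus ZT00 of LL day 3, with the regime, day and zeitgeber time (h) on the x axis. Lines join the authors' means of F. bidentis and F. robusta, and grey bands mark darkness. HSP90.1, HSP70-4, HSP101 and HSFA2 stand highest at dark ZT12 on LD days (except HSFA2 on LD day 2 in F. robusta) and lack that peak in LL, while HSFA3, AT5G23240 and NDHT follow other hours of the day and HSP90.7 is highest on LL day 1 in F. bidentis.

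HSP70-4 (AT3G12580), a cytosolic HSP70, had 1477.5 and 1747 RPM at dark ZT12 and 836 and 642.5 RPM at lit ZT12 in F. bidentis. Corresponding means in F. robusta were 1229.5 and 1566.5 RPM and 541 and 427 RPM. The groups did not overlap, and the differences were -1.13 log2 units (adjusted p = 0.00384, at most 0.0971 with a mean left out) and -1.53 (adjusted p = 0.00205, at most 0.0684). HSP70-2 (AT5G02490) differed between the species in its rhythm (adjusted p = 0.0196): it spanned 0.88 log2 units in F. bidentis against 1.62 in F. robusta, the latter with 324 and 321.5 RPM at ZT00 and 721.5 and 916.5 RPM at ZT04, where F. bidentis had 915 and 948.5 RPM, then 909.5 and 1083.5 RPM. HSP70-15 (AT1G79920), of the HSP110 class that exchanges the nucleotide of HSP70, showed the reverse order, with 1.46 log2 units in F. bidentis against 0.73 in F. robusta (adjusted p = 0.0374). Neither rhythm difference passed in every fit with a time point left out (largest adjusted p = 0.0575 and 0.133).

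Of the 8 members that are HSP101 or small heat shock proteins, 8 were highest at LD ZT12 in F. bidentis against 6 in F. robusta (29.2% and 28.5% of all genes). The exceptions in F. robusta, HSP17.6II and HSP15.7, were highest at ZT16. HSP101 (AT1G74310), the disaggregase needed for acquired heat tolerance in Arabidopsis, had 94 and 99 RPM at dark ZT12 in F. bidentis, 11.5 and 7.5 RPM 4 h later and 10.5 and 8 RPM at lit ZT12. F. robusta had 182.5 and 109 RPM, then 23.5 and 21 RPM, and 28 and 19.5 RPM at lit ZT12. In both species no other LD or LL mean reached the lower of the dark ZT12 means. The difference with light was -3.26 log2 units in F. bidentis (SE 0.29, adjusted p = 8.62e-07) and -2.54 in F. robusta (SE 0.29, adjusted p = 0.000107). Over all LD times HSP101 was lower in F. bidentis (difference -1.13 log2 units, SE 0.20, adjusted p = 0.000158).

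HSP17.6II (AT5G12020), a cytosolic class II small heat shock protein, rose from 1.5 and 1 RPM at ZT08 to 55.5 and 61 RPM at ZT12 in F. bidentis. With light at ZT12 it had 2 and 1 RPM, a difference of -4.59 log2 units (SE 0.43, adjusted p = 2.84e-06). In F. robusta it had 30.5 and 12 RPM at dark ZT12 and was listed at 0 in both lit ZT12 means (adjusted p = 4.98e-05). Its highest hour in F. robusta was ZT16, at 97.5 and 49 RPM, where F. bidentis had 3 and 3 RPM. The groups did not overlap in either species.

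HSP23.6 (AT4G25200), a small heat shock protein of mitochondria, was listed at 13.5 RPM in each dark ZT12 mean of F. bidentis, at 0 in its other 10 LD means, and at no more than 0.5 RPM in LL. In F. robusta it had 17 and 15 RPM at dark ZT12, between 2 and 5.5 RPM at the other LD hours, and up to 11 RPM in LL. The change from ZT08 to ZT12 differed between the species (adjusted p = 0.0115), as it did for 3 members and 2.61% of all genes (2 and 2.53% after TMM), and so did the change with light at ZT12 (adjusted p = 0.0228), on a log2(mean RPM + 1) scale on which the zeros of F. bidentis set the size. Neither call held in any fit with a time point left out (adjusted p up to 0.149 and 0.353), nor without the means that stand apart (adjusted p = 0.0594 and 0.0726).

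Of the class I small heat shock proteins, HSP17.4 (AT3G46230) and HSP17.6C (AT1G53540) differed between the species in LD rhythm, in a joint test of cosine and sine that does not tell the size of a rhythm from its hour. HSP17.4 had 120 and 74.5 RPM at ZT12 in F. robusta against 17.5 and 28 RPM at ZT04, while F. bidentis had 58.5 and 62.5 RPM at ZT12 and 56 and 28.5 RPM at ZT04. The spans were 1.12 and 2.15 log2 units for HSP17.4 (adjusted p = 0.0316 for the difference) and 0.55 and 1.97 for HSP17.6C (adjusted p = 0.0403), with F. bidentis first, and the fitted peaks lay -3.88 and -4.58 h apart (F. bidentis minus F. robusta). Both differences were lost without the F. robusta means that stand apart (adjusted p = 0.058 and 0.101). From ZT08 to ZT12, 5 of the 8 members of the group rose in F. bidentis against 8 in F. robusta, beside 18.4% and 26% of all genes. After TMM 3 and 5 rose, beside 8.85% and 2.60%, and without the means that stand apart 7 rose in F. robusta, beside 5.16%. Those that did not pass in F. bidentis were HSP17.4 at 0.45 log2 units (adjusted p = 0.308), HSP17.6C at 0.56 (adjusted p = 0.236) and HSP17.6A at 0.78 (adjusted p = 0.071). With light at ZT12, 5 and 6 were lower, beside 6.69% and 0.627% of all genes. After TMM 5 and 5 were lower, beside 7.91% and 0.553%, and without those means 4 were lower in F. robusta, beside 0.265%.

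Partners of these chaperones that the description search does not find were measured as well. On a list of heat stress co-factors, 12 non-members were tested. From ZT08 to ZT12, 7 rose in F. bidentis against 8 in F. robusta, beside 18.4% and 26% of all genes (6 and 2 after TMM, beside 8.85% and 2.60%). With light at ZT12, 4 and 2 were lower, beside 6.69% and 0.627% of all genes. FES1A (AT3G09350), a nucleotide exchange factor of cytosolic HSP70, had 132.5 and 172 RPM at dark ZT12 and 27.5 and 22.5 RPM at lit ZT12 in F. bidentis. In F. robusta it had 79.5 and 77.5 RPM and then 22 RPM in both, so dark and lit means did not overlap in either species. Its differences were -2.55 log2 units (SE 0.21, adjusted p = 2.24e-07) and -1.79 (SE 0.21, adjusted p = 0.000107). MBF1C (AT3G24500), a co-activator of the Arabidopsis heat response, had 25.5 and 45.5 RPM against 4 and 2 RPM in F. bidentis and 49 and 28 RPM against 1 and 1.5 RPM in F. robusta. HOP1 (AT1G12270), which links HSP70 to HSP90, was lower with light in F. bidentis (-1.03 log2 units, adjusted p = 0.00313).

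The ER chaperones followed another course. All 7 members were lower in F. bidentis in LD and in LL (6 in LL after TMM, 5 without the means that stand apart), where 32.5% of all genes were lower in LD and 41.8% in LL (37.1% after TMM, 32.9% without those means), with median differences of -0.887 and -0.772 log2 units. On a list of other genes of ER folding and stress, 7 of 10 tested non-members were lower in F. bidentis in LD and 1 was higher, and the counts in LL were again 7 and 1, beside the same shares of all genes. HSP90.7 (AT4G24190), the ER HSP90, ran from 116.5 to 294.5 with a median of 243.25 RPM over the LD means of F. bidentis and from 254.5 to 1253 with a median of 450.5 RPM over those of F. robusta (difference -1.17 log2 units, SE 0.18, adjusted p = 3.3e-05). BIP3 (AT1G09080), an ER HSP70 induced by ER stress in Arabidopsis, ran from 1 to 4.5 with a median of 3 RPM in F. bidentis and from 7.5 to 45.5 with a median of 16.75 RPM in F. robusta, without overlap. Its difference was -2.22 log2 units in LD (SE 0.14, adjusted p = 2.66e-09) and -2.37 in LL (SE 0.13, adjusted p = 2.17e-11).

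Light at night went with higher levels of ER chaperones in F. bidentis. Compared over ZT12, ZT16 and ZT20 together, LL minus LD, 5 of 7 passed as higher in F. bidentis (6 after TMM), where 5.54% of all genes were higher and 35.4% lower. BIP1 (AT5G28540), its parallel entry BIP2 (AT5G42020) and HSP90.7 passed in every fit with a time point left out, at 0.85, 0.85 and 0.81 log2 units (adjusted p = 0.00223, 0.0014 and 0.0074). At ZT12 BIP1 had 341 and 342 RPM in the dark, and 925.5 RPM on LL day 1 and 399.5 RPM on LL day 2. HSP90.7 had 251.5 and 237 RPM at dark ZT12 and 925.5 and 489 RPM at lit ZT12 in F. bidentis, a difference of 1.46 log2 units (SE 0.41, adjusted p = 0.033, at most 0.205 with a mean left out). In F. robusta it had 1109 and 1253 RPM and 1046.5 and 482 RPM, a difference of -0.73 log2 units that did not pass (adjusted p = 0.343). The lit means were above the dark ones in F. bidentis and below them in F. robusta, but the difference between the species of 2.19 log2 units did not pass (SE 0.58, adjusted p = 0.148). The non-members of the ER list went both ways at ZT12 in F. bidentis. BZIP60 passed limma as lower with light (-0.892 log2 units, adjusted p = 0.0431). IRE1A, IRE1B, BZIP17, BZIP28 and PDIL1-1 were lower, and CRT3, CNX2, SDF2 and CRT1B higher, without passing. After TMM CRT3 passed as higher (adjusted p = 0.0165), and BZIP60 and IRE1A as lower (0.0236 and 0.0393). In F. robusta 1 ER member, the J-domain protein ERDJ3A (AT3G08970), passed as higher with light at night (1.30% of all genes), at 1.01 log2 units (adjusted p = 0.0261), a call lost without the means that stand apart (adjusted p = 0.158) and in some fits with a time point left out.

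The group of 11 chloroplast chaperones leaves out other members with chloroplast roles. Among those left out, J8, NDHT, RBCX1 and RBCX2 had an LD rhythm in both species, and NDHU and ARC6 had not. Of the 11, 10 had an LD rhythm in F. bidentis against 3 in F. robusta, beside 67.3% and 65.4% of all genes. After TMM the counts were 8 and 2, beside 40.8% and 41.8%. The median spans of the 11 were 1.489 and 0.258 log2 units, beside 0.796 and 0.79 for all genes. The test of the difference itself passed for 1 of them, TIG1 (AT5G55220), a trigger factor type chaperone, where 9.03% of all genes and 17 of the 155 members passed (10.8% and 23 after TMM). TIG1 ran from 61.5 to 298.5 with a median of 158.5 RPM in F. bidentis and from 233 to 474 with a median of 355 RPM in F. robusta, and its spans were 1.94 and 0.46 log2 units (adjusted p = 0.0121, at most 0.077 with a time point left out). CPN60B1 (AT1G55490), a beta subunit of the chaperonin that folds Rubisco, ran from 331 to 1440 with a median of 742 RPM in F. bidentis and from 994.5 to 1959 with a median of 1570.25 RPM in F. robusta. Its spans of 1.54 and 0.26 log2 units did not pass as different (adjusted p = 0.0773).

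In level, 5 of the 11 chloroplast members were lower in F. bidentis in LD and 1 was higher (32.5% and 32.3% of all genes), and in LL 5 were lower and 3 higher (41.8% and 26%). CPN60B1 was -1.0 log2 units apart in LD (SE 0.17, adjusted p = 7.2e-05), and TIG1 -1.22 (adjusted p = 2.01e-05). CPN60A2 (AT5G18820), a second alpha subunit, ran from 4 to 14 with a median of 8 RPM and from 11 to 57.5 with a median of 20.25 RPM, a difference of -1.42 log2 units (SE 0.11, adjusted p = 2.27e-08), at 12 of 12 LD times in the same direction. For the change from ZT08 to ZT12, the difference between the species passed for 0 of the 11 by limma, beside 2.61% of all genes. At an unadjusted p under 0.05 it passed for 1, beside 16.9%. Over the same hours 5 of the 11 rose in F. bidentis (2 after TMM) and 1 in F. robusta (a call lost after TMM). The shares of all genes that rose were 18.4% and 26%. Those in F. bidentis were CPHSC70-1 at 1.04 log2 units, CHL-CPN10 at 1.01, the parallel entries CPN60B1 at 0.97 and CPN60B3 at 0.95, and HSP90.5 (AT2G04030), the stromal HSP90, at 1.12 (adjusted p = 0.00174). Of these, HSP90.5 alone passed in every fit with a mean left out (adjusted p at most 0.0373), with 579.5 and 717.5 RPM at ZT08 and 1372 and 1429.5 RPM at ZT12.

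Outside the chaperonin ring, the Rubisco assembly chaperone RBCX1 (AT4G04330) differed between the species in level and in rhythm. In F. bidentis it was listed at 0 at ZT00 on both LD days, with 14.5 and 13.5 RPM at ZT08 and 7.5 and 10 RPM at ZT12. F. robusta had 4 and 3 RPM at ZT00, 11.5 and 15.5 RPM at ZT08 and 23 and 26 RPM at ZT12. The fitted spans were 3.60 and 2.69 log2 units and the fitted peaks 11 and 13.9 h, and the joint test of the rhythm difference passed in every fit with a time point left out (adjusted p = 0.00787). The change from ZT08 to ZT12 was -0.63 and 0.83 log2 units and differed between the species (adjusted p = 0.018), a call lost with any time point left out. Its level in LD was lower in F. bidentis (difference -1.56 log2 units, SE 0.25, adjusted p = 4.9e-05). The change of RBCX2 (AT5G19855) from ZT08 to ZT12 was -1.42 log2 units in F. bidentis (adjusted p = 1.21e-05) and -0.48 in F. robusta (adjusted p = 0.039, and 0.151 without the means that stand apart). The difference between the species passed as deposited (adjusted p = 0.0366), but not after TMM (adjusted p = 0.139) and not with any time point left out. Of 3 other Rubisco assembly genes tested, 3 were lower in F. bidentis in LD, beside 32.5% of all genes.

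The 6 members grouped as mitochondrial chaperones all had an LD rhythm in both species, beside 67.3% and 65.4% of all genes. After TMM 5 and 6 had one, beside 40.8% and 41.8%. HSP23.6, also of mitochondria but grouped with the small heat shock proteins, was not called in both species. HSP60 (AT3G23990), the chaperonin of the mitochondrial matrix, spanned 1.80 log2 units in F. bidentis against 1.59 in F. robusta and peaked at 10.9 and 11.6 h. Its co-chaperonin CPN10 (AT1G14980) spanned 2.51 and 1.09 log2 units. With light at ZT12, 4 of 6 were lower in F. bidentis (6.69% of all genes), among them HSP60 with 186.5 and 256.5 RPM in the dark and 113.5 and 89.5 RPM in the light (-1.11 log2 units, adjusted p = 0.0141, at most 0.195 with a mean left out). In F. robusta 0 of 6 passed limma at ZT12 and 6 had an unadjusted p under 0.05, beside 14.8% of all genes lower and 3.36% higher. HSP60 had 193 and 281.5 RPM in the dark and 121.5 and 97.5 RPM in the light in that species (-1.09 log2 units, adjusted p = 0.0674). CCT is the chaperonin that folds actin and tubulin in the cytosol. Of its 7 members, 5 had an LD rhythm in F. bidentis against 2 in F. robusta (2 and 1 after TMM), beside the same shares of all genes. The rhythm difference between the species passed limma for 0 of 7 (9.03% of all genes). At an unadjusted p under 0.05 it also passed for 0, beside 24.5% of all genes. At ZT12 0 of 7 passed limma in either species, and 1 and 3 had an unadjusted p under 0.05. Of all genes, 16.7% and 14.8% were lower and 7.68% and 3.36% higher at that unadjusted p. The median differences of the 7 were -0.224 and -0.397 log2 units, beside -0.115 and -0.211 for all genes.

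**Figure D4:**
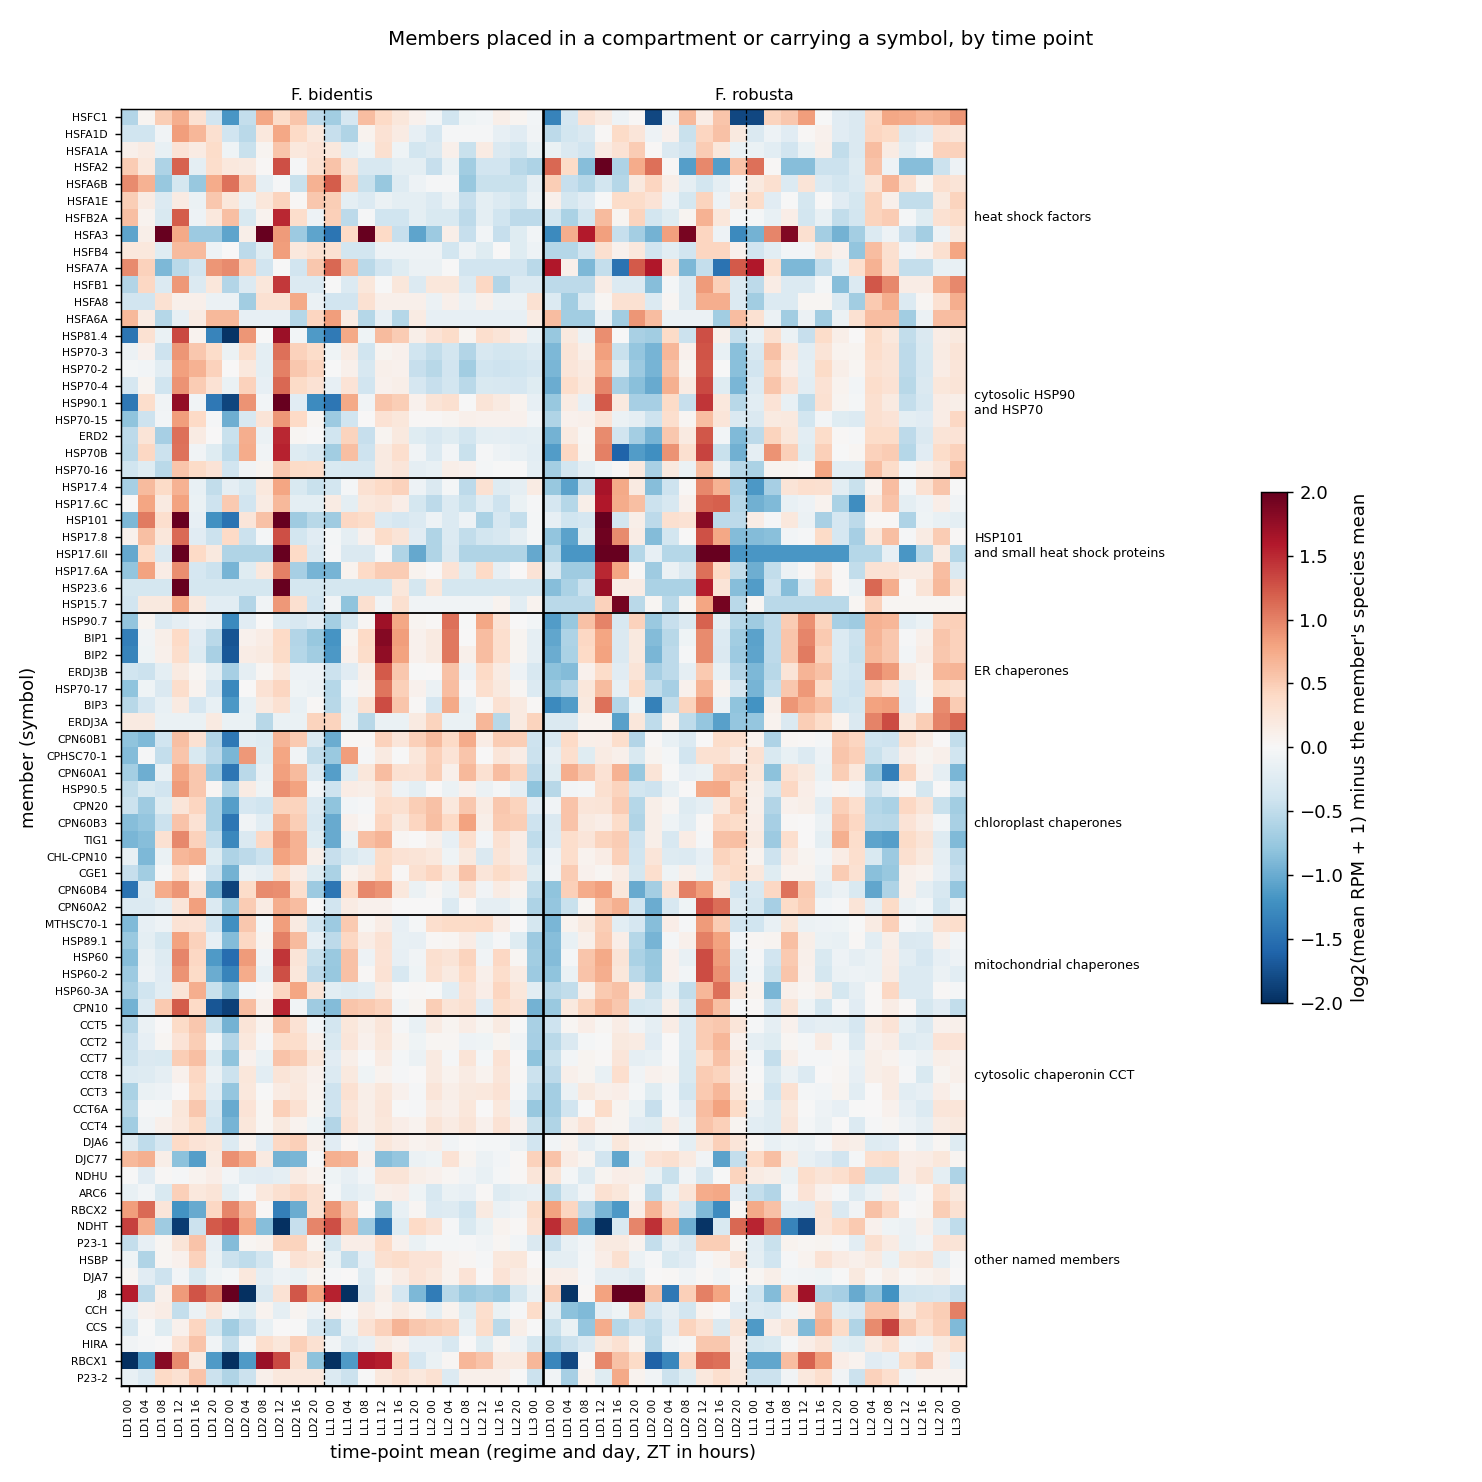
Members with a named compartment or symbol (76 of 155) in lines grouped by compartment, with the 25 time points of F. bidentis on the left and of F. robusta on the right. Colour gives log2(mean RPM + 1) minus the member's mean in that species. The 9 cytosolic HSP90 and HSP70 members are highest at ZT12 on LD days in F. bidentis, and several ER chaperones are high on LL days there.

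Of the 70 J-domain members, 7 were lower with light at ZT12 in F. bidentis and 0 in F. robusta by limma, beside 6.69% and 0.627% of all genes. In F. robusta 16 changed at an unadjusted p under 0.05, beside 14.8% of all genes lower and 3.36% higher. The median differences of the 70 were -0.254 and -0.326 log2 units, beside -0.115 and -0.211 for all genes. Over the whole night, 32 of 70 were lower in LL than in LD in F. bidentis and 3 higher (35.4% and 5.54% of all genes), but after TMM 14 were lower and 8 higher (14.5% and 15.5%). AT2G17880 passed in both species, at -1.82 log2 units in F. bidentis (adjusted p = 1.71e-05) and -1.43 in F. robusta (adjusted p = 0.0107), the 1 member lower in F. robusta in every fit with a time point left out, though not without the means that stand apart (adjusted p = 0.0554). Its dark means ran at 15.5, 20.5 and 24 RPM on LD day 1 and 10, 20.5 and 21 RPM on LD day 2 in F. bidentis, and its lit means at the same hours at 6, 4.5 and 3.5 RPM and 3.5, 4 and 5 RPM. J8 (AT1G80920), a small J-domain protein of chloroplasts, was lower with light at night in F. bidentis (-1.40 log2 units, adjusted p = 0.00019) and stood 1.23 log2 units higher in F. bidentis in LD (SE 0.25, adjusted p = 0.000458).

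Rhythms of 10 of the 70 J-domain members differed between the species, where 9.03% of all genes passed. AT1G56300 rose from 0.5 and 0.5 RPM at ZT00 to 19.5 and 22.5 RPM at ZT08 in F. bidentis and from 0.5 and 1 to 5 and 4 RPM in F. robusta. Its spans were 4.62 and 2.33 log2 units (adjusted p = 0.00367). AT5G06130, described as related to DnaJ, had 3.5 and 3.5 RPM at ZT04 and 63 and 67.5 RPM at ZT12 in F. bidentis, and 20.5 and 19 and 44.5 and 49 RPM in F. robusta (spans 3.83 and 1.39 log2 units, adjusted p = 0.00532). On LL day 2 it stayed between 51.5 and 61.5 RPM in F. bidentis at all hours. AT1G56300, AT5G06130 and RBCX1 were the 3 members whose rhythm difference passed in every fit with a time point left out, and the count of 17 fell to between 6 and 11 in 8 of the 12 such fits.

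Mean levels differed between the species for many members in both directions. In LD 54 of 155 were higher in F. bidentis and 47 lower (34.8% and 30.3%, beside 32.3% and 32.5% of all genes), and in LL 44 were higher and 54 lower (26% and 41.8% of all genes). After TMM, which takes the LL median of all genes from -0.134 to -0.018 log2 units, the LL counts were 63 (34% of all genes) and 49 (37.1%), and those in LD 54 (32.5%) and 47 (34.1%). Without the means that stand apart they were 59 (31.8%) and 43 (32.9%) in LL, and 54 (32.5%) and 45 (29.7%) in LD. In both regimes 35 were higher and 41 lower (22.2% and 29.7% of all genes), and 0 passed in opposite directions. A difference of at least 2-fold beside the adjusted p was met by 10 members in each direction in LD (6.45%, beside 7.26% of all genes higher and 6.86% lower), and by 9 higher and 13 lower in LL (5.81% and 8.39%, beside 6.02% and 9.66%).

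Among photosynthetic J-domain proteins, NDHU (AT5G21430), another subunit of the NADH dehydrogenase-like complex of cyclic electron flow, ran from 184 to 240.5 with a median of 213.25 RPM in F. bidentis and from 45.5 to 85 with a median of 61.25 RPM in F. robusta in LD. It differed by 1.76 log2 units in LD (SE 0.07, adjusted p = 1.01e-11) and 1.79 in LL (SE 0.10, adjusted p = 2.64e-11). NDHT differed by 0.97 and 1.01 log2 units (adjusted p = 9.17e-09 and 9.3e-08). ARC6 (AT5G42480), which acts in chloroplast division, differed by 0.82 and 0.67 (adjusted p = 8.35e-07 and 1.31e-06). All 3 were higher in F. bidentis, with NDHU higher at 12 of 12 LD and 13 of 13 LL times. AT2G21510 was the reverse, at -2.09 log2 units in LD (SE 0.11, adjusted p = 2.76e-10), with 2.5 to 5 with a median of 3.5 RPM in F. bidentis and 9 to 39 with a median of 19 RPM in F. robusta. AT2G33735 was higher in F. bidentis by 1.56 log2 units in LD (adjusted p = 3.82e-09) and AT3G14200 by 1.23 in LL (adjusted p = 2.84e-10).

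**Figure D5:**
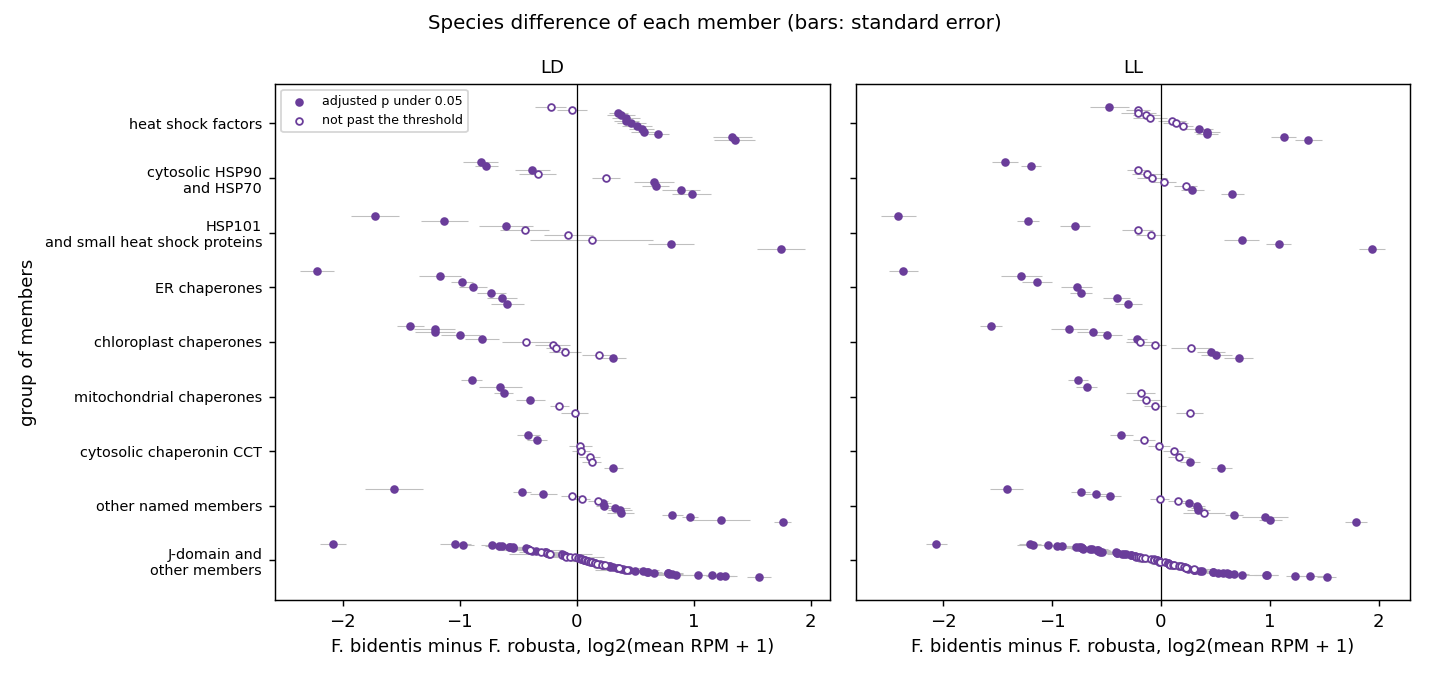
Species difference in mean level (F. bidentis minus F. robusta, in log2(mean RPM + 1), with the SE as bars) for the 155 members, in LD and in LL. Rows are 7 compartments, the other named members, and the remaining J-domain and other members. The heat shock factors lie mostly above 0 (11 of 13 passed as higher in LD) and the 7 ER chaperones below 0 in both regimes.

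Over ZT12, ZT16 and ZT20 together, 8 members were higher with light in F. bidentis (5.54% of all genes) and 53 lower (35.4%), and in F. robusta 3 were higher (1.30%) and 7 lower (5.01%). The median difference of all genes was -0.214 log2 units in F. bidentis against -0.189 in F. robusta, and after TMM (medians 0.007 and 0.008) the members' counts became 23 higher (15.5% of all genes) and 20 lower (14.5%) in F. bidentis, against 5 (2.78%) and 4 (1.44%) in F. robusta. Without the means that stand apart, 0 were higher and 2 lower in F. robusta by limma (0.383% and 1.30% of all genes). Leaving out LL day 2 ZT20 took the F. robusta count of lower members to 22, and leaving out LL day 2 ZT16 took it to 1. HSP17.6II was lower with light at night in both species as deposited (adjusted p = 0.0102 and 0.036), in F. robusta not after TMM (adjusted p = 0.0531) and not without the means that stand apart (adjusted p = 0.069). The change with light at night differed between the species for 0 members by limma (1.03% of all genes). It differed for 15 at an unadjusted p under 0.05 (12.3% of all genes) and for 1 after TMM (2.05%). AT5G23240, the member with the largest rhythm, was higher in F. bidentis with light at night (1.63 log2 units, SE 0.52, adjusted p = 0.0282, at most 0.063 with a time point left out).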

How the data were processed

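Per the labels, mature leaf RNA of 2 species was sequenced as 100 libraries in 50 groups of 2 biological replicates. The authors' deposited table gives RPM values, scaled by them to a common total, and their means per time point in steps of 0.5 RPM. The 50 columns of means were used, and 200 columns of values per library, whose numbers match no sample title, were not. Per the submitters' processing notes CASAVA and TAIR10 were used, with no role named; the sources used here name no aligner and no handling of Flaveria reads.

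Genes averaging 1 RPM or more over the 50 means were analysed as log2(mean RPM + 1), so fold changes of low genes are understated, with limma 3.58.1 in R 4.3.3 (lmFit, eBayes with trend and robust settings), Python 3.11.15, pandas 2.3.3, numpy 2.4.6 and matplotlib 3.10.9. P-values were adjusted over all 13563 genes by the Benjamini-Hochberg method at 0.05. Rhythms were F tests of a 24 h cosine and sine beside a linear trend. Species were compared at matched time points, and LL minus LD was estimated within the hours ZT12, ZT16 and ZT20. The ZT12 against ZT08 and the ZT12-only comparisons and their alternatives were added after seeing the data. The fits were tested on simulated data.

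Alternatives were TMM, 0.1 as pseudocount, all genes or those from 5 RPM, no trend, an added 12 h term, a minimum ratio of 1.5 for rhythms or 2 otherwise, the omission of each time point, and the omission of the 6 F. robusta means that stand apart. Members and lists were chosen with earlier results of these data known. Named were up to 3 members of highest level per family, up to 5 per comparison and direction that passed with at least 10 RPM in the higher group (for rhythms and differences between species, in the highest mean), any heat shock factor, HSP90, HSP101 or chaperonin, and members of parallel pairs. ARC6, ERDJ3A, HSP17.4, HSP70-15, HSP70-16, the non-members FES1A, MBF1C and HOP1, the non-members of the ER list, and the J-domain and copper chaperone entries listed only for their rhythm difference were named after their values were seen. No sequences were used.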

Additional observations from a re-analysis of the deposited data

Results flagged for a closer look

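Rhythms in LD differed between the species for 17 members (limma's F test of the products of species with the cosine and sine, adjusted over all genes), where 9.03% of all genes passed. The test is joint and does not tell the size of a rhythm from its hour, so the spans below are descriptions. With a larger fitted span in F. bidentis these were the J-domain members AT1G56300 (adjusted p = 0.003674), AT5G06130 (0.005321), AT1G16680 (0.03278), AT1G10350 (0.03931), AT5G25530 (0.04055) and AT1G18700 (0.04278), the HSP110-class HSP70-15 (0.03738), the Rubisco assembly chaperone RBCX1 (0.007865) and the trigger factor TIG1 (0.01213). With a larger span in F. robusta these were the J-domain members AT2G24395 (adjusted p = 0.0154), AT1G77930 (0.02616), AT5G18140 (0.03056) and AT5G23240 (0.03314), the cytosolic HSP70-2 (0.01961), the class I small heat shock proteins HSP17.4 (0.0316) and HSP17.6C (0.0403), and the copper chaperone AT2G28660 (0.02792). AT5G18140 spanned 0.80 log2 units in F. bidentis against 2.54 in F. robusta, and AT5G25530 spanned 1.12 and 0.28. AT5G23240 had nearly the same span in both (6.62 and 6.92), with peaks at 9.6 and 11.6 h. AT5G06130 and AT2G24395 are described only as related to DnaJ.

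The change from ZT08 to ZT12 differed between the species for HSP23.6 (adjusted p = 0.01155), RBCX1 (0.01802) and RBCX2 (0.03663), and the change with light at ZT12 for HSP23.6 (0.02278). These 4 differences belong to the comparisons chosen after seeing the data, and none passed with any time point left out.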

How the results depend on the processing

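Settings that moved a count of members by more than 1.5 times were these; the cause was not tested except where a stricter rule can only lower a count. After TMM, 62 members were rhythmic in LD in F. bidentis, 23 were higher and 20 lower with light at night in F. bidentis against 5 and 4 in F. robusta, and 1 differed between the species in that change. From ZT08 to ZT12, 25 rose after TMM in F. bidentis against 10 in F. robusta, and at ZT12 6 were higher with light in F. bidentis and 1 in F. robusta. Without a linear trend 29 members differed in rhythm between the species. A minimum of 2-fold left 10 higher and 10 lower in LD and 9 and 13 in LL between the species, 1 higher and 3 lower at night in F. bidentis, 1 and 2 in F. robusta, 22 rising at dusk in F. bidentis, 14 rising and 2 falling in F. robusta, and 1 higher with light at ZT12 in F. bidentis. Without the F. robusta means that stand apart, 0 were higher and 2 lower at night there, 18 rose and 2 fell at dusk, and 1 differed between the species at dusk. With a filter at 5 RPM, 0 differed between the species at ZT12, since HSP23.6 was not tested.

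With each time point left out in turn, rhythmic members numbered 93 to 115 in F. bidentis and 86 to 106 in F. robusta in LD, and 0 to 0 in LL in both. Those with a species difference in rhythm numbered 6 to 17 (6 without LD day 1 ZT12, 8 without LD day 1 ZT08 or ZT16, 9 without LD day 1 ZT04, LD day 2 ZT00 or LD day 2 ZT08, 10 without LD day 1 ZT00, 11 without LD day 2 ZT16). Members higher in F. bidentis numbered 51 to 56 in LD and 40 to 49 in LL, and lower ones 43 to 49 and 49 to 55. With light at night 3 to 10 were higher and 42 to 56 lower in F. bidentis (3 without LD day 2 ZT16, 4 without LD day 1 ZT16, 5 without LD day 1 ZT20 or LL day 1 ZT20), and 0 to 3 and 1 to 22 in F. robusta, with 0 to 0 differing between the species. Of the F. robusta counts, the higher one was 0 without any 1 of the 4 ZT16 means and 1 without LD day 2 ZT12 or LL day 2 ZT12. The lower one was 1 without LL day 2 ZT16, 2 without LD day 1 ZT16, LD day 2 ZT16 or LL day 2 ZT12, 3 without LD day 2 ZT12 or LL day 1 ZT16, 4 without LD day 1 ZT12 or LL day 1 ZT20, and 22 without LL day 2 ZT20. At dusk 15 to 34 rose and 5 to 5 fell in F. bidentis, 18 to 70 and 1 to 3 in F. robusta (1 falling without LD day 2 ZT12, 2 without either ZT08), and 0 to 0 differed. With light at ZT12, 0 to 2 were higher and 7 to 25 lower in F. bidentis (0 higher without either LD mean, 1 without LL day 2), 0 to 1 and 6 to 13 in F. robusta, and 0 to 0 differed.

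Of 2264 alternative values for 365 results of named members, 1951 kept their direction and side of the threshold, 312 lost the call and 1 turned: CCT2, lower with light at night in F. bidentis as deposited, stood at 0.013 log2 units after TMM (adjusted p = 0.9218). No paired analysis was possible because the columns used are means over replicates and carry no replicate number. The depth behind each mean is unknown, which limits members of a few RPM most, such as HSP23.6, HSFA7A and RBCX1.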
